A study of Nicotiana tabacum with 60 samples.

Results

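*ndhF*, *rpl32* and *ccsA* are 3 of the 78 chloroplast reading frames measured here in tobacco (*Nicotiana tabacum*). They were chosen as neighbours in the small single-copy region of the chloroplast genome, with earlier results of these data known. Each was followed in 10 lines by Ribo-seq, which counts the mRNA fragments covered by translating ribosomes (footprints), and by RNA-seq. The 60 libraries fall into 3 samples of each line and kind, which the methods call biological replicates, and tissue was taken at a 4-leaf stage. pRB8c is the control line that carries the *aadA* resistance marker and no knockout, and it serves 5 transplastomic mutants: Δ3’-*psbD* (photosystem II; the end of *psbD* and the beginning of *psbC* are missing), Δ*psbJ* (a small subunit of photosystem II), Δ*petB*/*D* (cytochrome *b*6 and subunit IV, with *psbB*, *psbT*, *psbN* and *psbH* removed as well), Δ*petN* (a small cytochrome *b*6*f* subunit) and Δ*atpB*/*E* (ATP synthase; its samples are titled for *atpB* only). For Δ*petN* the paper also reports antisense RNA of *psbM* and reduced *psbM* expression. Δ*psaB*, a frameshift in a photosystem I reaction centre gene, was set against RB70, another *aadA* line. Its 3 samples come from 2 independent alleles according to the methods. as-*ATPC*, in which a nuclear antisense gene lowers the γ subunit of the ATP synthase, was set against the wild type SNN. The labels give Petit Havana and medium with 3% sucrose for all samples, while the methods give soil for as-*ATPC* and SNN. None of the mutations touches the small single-copy region.

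The 3 genes serve different machines. *ndhF* encodes a membrane subunit of the NDH complex, which passes electrons from ferredoxin to plastoquinone and pumps protons around photosystem I. *rpl32* encodes a protein of the large subunit of the chloroplast ribosome. *ccsA* encodes a thylakoid protein that attaches haem to *c*-type cytochromes, among them cytochrome *f* of the cytochrome *b*6*f* complex. In tobacco *ndhF* lies on one strand, and *rpl32* and *ccsA* lie on the other, with a tRNA gene for leucine between them. Chloroplast genes are transcribed in overlapping units whose RNAs are processed and stabilised by nuclear-encoded proteins, so neighbours can differ in RNA level as well as in ribosome load.

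On the chloroplast genome used for mapping, the counted window of *ndhF* ran from position 112082 to 114264 on the minus strand (2183 of the 2223 nucleotides of the frame, which holds 740 codons). The window of *rpl32* ran from 115073 to 115200 on the plus strand and held 128 of 168 nucleotides (55 codons). That of *ccsA*, also on the plus strand, ran from 116356 to 117257 (902 of 942 nucleotides, 313 codons). Windows were 808 bases apart between *ndhF* and *rpl32* and 1155 bases apart between *rpl32* and *ccsA*. All 3 are single exons. No sequence of these genes was at hand, and none is shown.

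Chloroplast reading frames held between 31328 and 5331355 footprints per Ribo-seq library and between 1029393 and 14748697 counts per RNA-seq library. The chloroplast took 3.00% to 33.8% of mapped Ribo-seq reads, lowest in Δ*atpB*/*E* (3.00% to 4.79%) and in the first Δ*psaB* library (3.35%). That Δ*psaB* library stands apart, with 31328 footprints, of which 132 were in *ndhF*, 36 in *rpl32* and 8 in *ccsA*. In RNA-seq the 6 libraries of RB70 and Δ*psaB* held fewer counts than the others (1029393 to 2278700 against 6918160 to 14748700), and their reading-frame counts came to 95.5% to 114% of the reads listed as chloroplast, against 71.3% to 87.0% in the other 24. Whether that difference in counting bears on comparisons across these lines was not tested.

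Levels below are normalised counts relative to the library total (CPM), scaled within the libraries of a comparison by TMM, a trimmed mean that sets the bulk of the chloroplast genes equal. They therefore measure a gene against the other chloroplast genes, and 1 control library has a slightly different value in each comparison. A gene was called changed at an adjusted p of 0.01 or less (edgeR quasi-likelihood test, Benjamini-Hochberg over the 77 genes tested), and separately where it also changed 4-fold or more.

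Per length and set on 1 scale over all 30 libraries of a kind, *rpl32* had the highest footprint level of the trio in every line and *ccsA* the lowest in every line but as-*ATPC*. *rpl32* footprints ranged from 2042 ± 332 CPM per kilobase in pRB8c (SD, n = 3) to 6799 ± 1258 in Δ*atpB*/*E*. The order down from Δ*atpB*/*E* was Δ*petB*/*D* (5372 ± 830), SNN (4238 ± 18.7), Δ*psaB* (3935 ± 1110), Δ*petN* (3875 ± 87.9), as-*ATPC* (3843 ± 761), Δ3’-*psbD* (3491 ± 414), RB70 (2427 ± 239), Δ*psbJ* (2139 ± 359) and pRB8c. Neighbours in this order overlapped, except Δ*petB*/*D* with SNN and Δ3’-*psbD* with RB70. SNN and Δ*petN*, not neighbours, did not overlap. RB70, Δ*psbJ* and pRB8c overlapped.

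*ndhF* footprints covered a narrow range, from 728 ± 89.4 CPM per kilobase in SNN to 1456 ± 385 in pRB8c. Between them lay Δ*psaB* (853 ± 157), Δ*petN* (933 ± 59.9), as-*ATPC* (952 ± 83.5), RB70 (960.3 ± 69.8), Δ*psbJ* (1091 ± 66.2), Δ3’-*psbD* (1227 ± 152), Δ*atpB*/*E* (1320 ± 210) and Δ*petB*/*D* (1357 ± 112), each overlapping its neighbours in that order except RB70 and Δ*psbJ*. *ccsA* footprints ran from 231 ± 30.3 in Δ*atpB*/*E* to 984 ± 57.8 in as-*ATPC*. Next above Δ*atpB*/*E* came Δ*petB*/*D* (274 ± 38.6), Δ*psbJ* (299.6 ± 136), Δ*psaB* (324 ± 151), Δ*petN* (343 ± 190) and Δ3’-*psbD* (376 ± 208), which overlapped, and then the controls RB70 (548 ± 153), SNN (669 ± 141) and pRB8c (680.5 ± 204), still overlapping, while as-*ATPC* lay clear of pRB8c. In footprints all 3 control lines thus had a higher mean *ccsA* level than every chloroplast mutant, with overlapping samples.

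In RNA the split was wider. *ccsA* RNA stood at 2507 ± 110 CPM per kilobase in pRB8c, 2371 ± 212 in RB70, 2139 ± 72.6 in SNN and 1983 ± 88.0 in as-*ATPC*, and at 1204 ± 362 in Δ*atpB*/*E*, 1192 ± 246 in Δ*psbJ*, 1056 ± 442 in Δ*psaB*, 1003 ± 95.4 in Δ*petB*/*D*, 835 ± 131 in Δ3’-*psbD* and 699 ± 89.5 in Δ*petN*. Those 6 chloroplast mutants overlapped one another from neighbour to neighbour, and all lay below the 3 controls and as-*ATPC*. *rpl32* RNA ran from 510.3 ± 40.3 in Δ*petN* through pRB8c (671 ± 125), Δ*psbJ* (758 ± 131), SNN (800.2 ± 206), Δ*petB*/*D* (1135 ± 130), RB70 (1210 ± 90.3), Δ3’-*psbD* (1223 ± 256), as-*ATPC* (1550 ± 148) and Δ*atpB*/*E* (1686 ± 297) to 2609 ± 334 in Δ*psaB*, and neighbours in that order overlapped except at its 2 ends. *ndhF* RNA had the lowest level per length of the trio in every line, from 311 ± 3.57 in SNN to 666 ± 283 in Δ*atpB*/*E*.

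**Figure D1:**
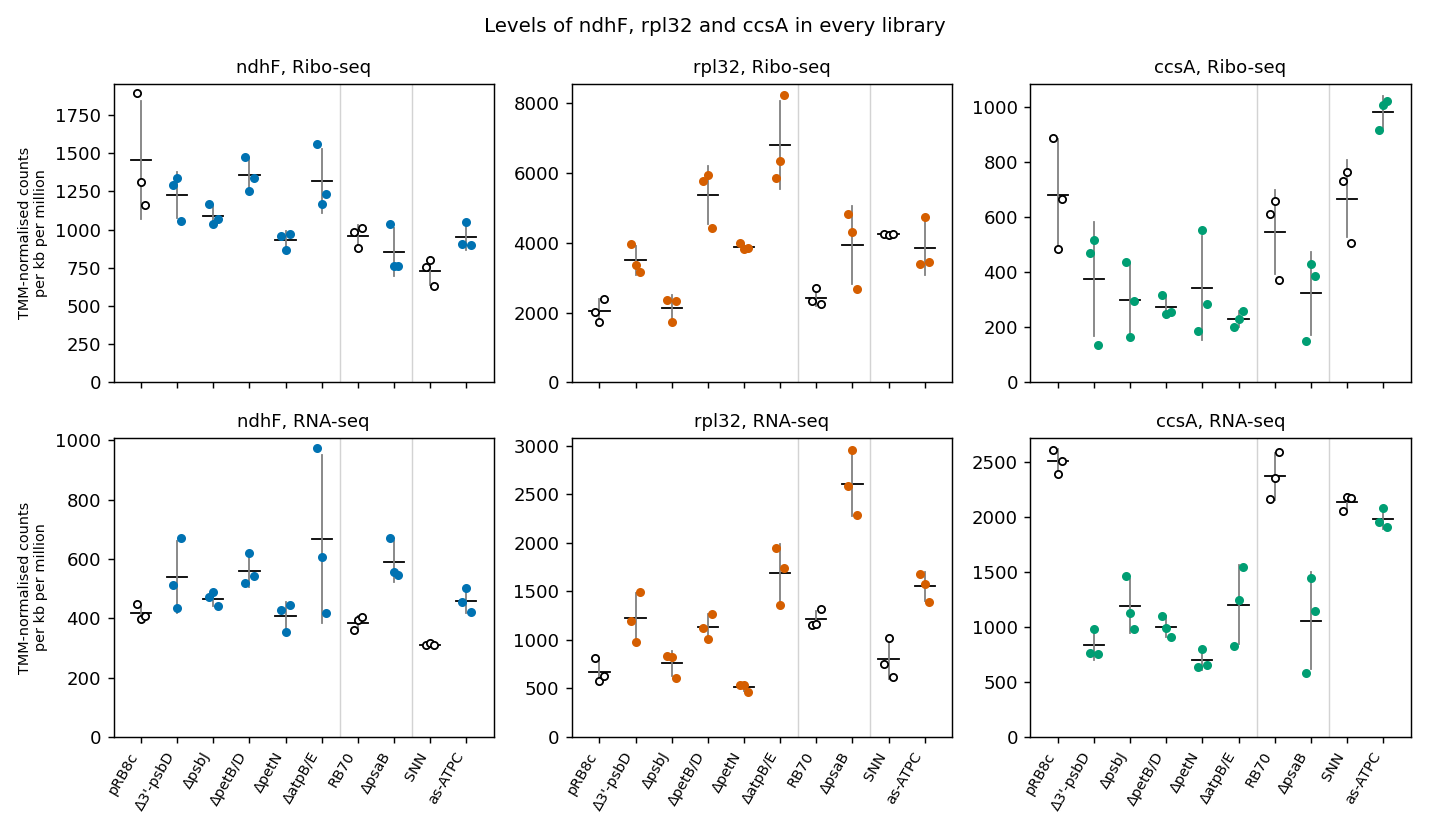
Levels in CPM per kilobase, TMM-normalised over 30 libraries of a kind, for *ndhF*, *rpl32* and *ccsA* in each of the 10 lines (3 libraries each), Ribo-seq above and RNA-seq below; open points are control lines, filled points mutants, bars the mean and vertical lines 1 SD, and grey lines part the lines by their control. *ccsA* RNA sits between 1983 and 2507 on average in the controls and as-*ATPC* and between 699 and 1204 in the 6 chloroplast mutants. How many other genes part the lines this way was not counted.

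Footprints per RNA on these scales separated the genes further. The ratio of the 2 mean levels per kilobase was 0.191 to 0.496 for *ccsA* over the 10 lines, 1.44 to 3.49 for *ndhF* and 1.51 to 7.59 for *rpl32*. Over all comparisons, using library sizes alone moved the median of all genes by 0.02 to 1.14 in footprints and −0.08 to 1.13 in RNA. The scales of the 2 kinds of library are not tied to each other, so that only the order of the genes can be read from these ratios. In all 10 lines *ccsA* was lowest.

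Each mutant was compared with its own control to ask whether the loss of a photosynthetic complex moved these genes, whose products belong to none of the complexes removed. Of 63 values (3 genes, 7 comparisons, 3 measures) 25 passed the test: 8 of 21 in footprints, 13 of 21 in RNA and 4 of 21 in footprints over RNA (translation efficiency). In Δ3’-*psbD* the test called 0 of the 3 genes in footprints, where it called 24.7% of all genes, 3 in RNA (68.8% of all) and 0 in efficiency (11.7%). In Δ*psbJ* it called 0, 1 and 0 of the 3 in the same order, beside 14.3%, 59.7% and 29.9% of all genes. In Δ*petB*/*D* the numbers were 2, 3 and 0, beside 31.2%, 62.3% and 29.9%. In Δ*petN* they were 2, 2 and 1, beside 48.1%, 68.8% and 48.1%. For Δ*atpB*/*E* they were 2, 2 and 1, beside 67.5%, 75.3% and 46.8%. In Δ*psaB* they were 0, 0 and 0, beside 0%, 9.09% and 1.30%. In as-*ATPC* they were 2, 2 and 2, beside 58.4%, 63.6% and 39.0%. Called genes were common in most comparisons, so that a call by itself does not set the 3 genes apart. Where the edgeR count was 0, between 0 and 3 of the genes had an unadjusted p under 0.05 and DESeq2 called between 0 and 2 (Δ*psaB* RNA had 3 and 2).

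**Figure D2:**
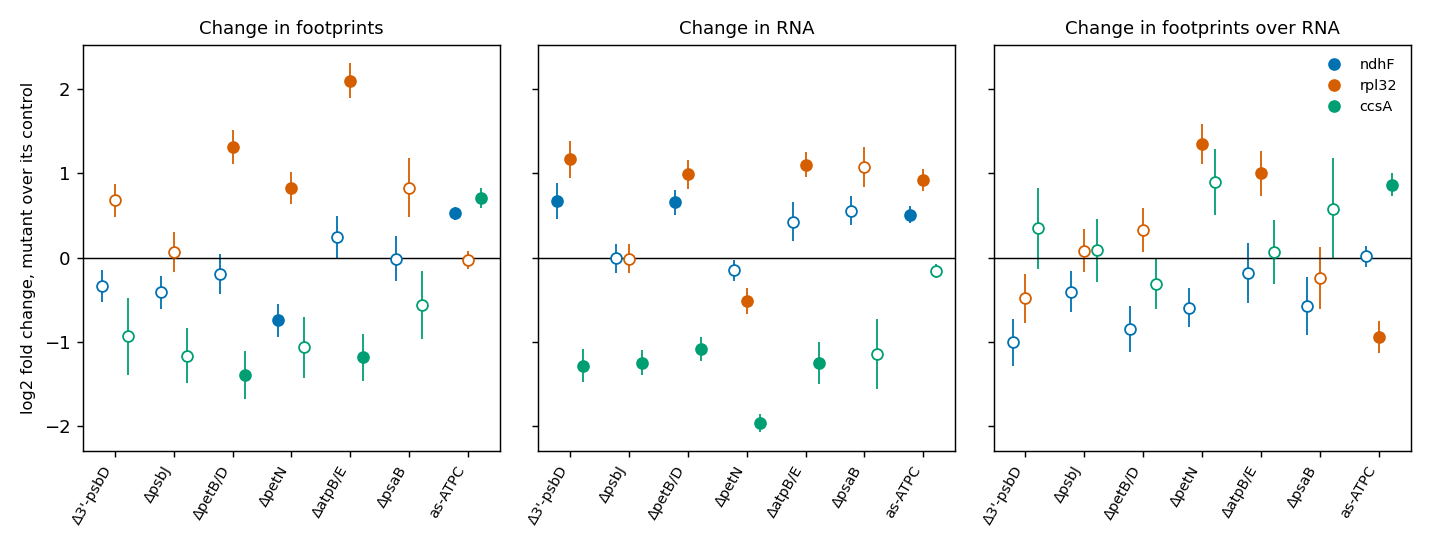
Log2 fold change of each gene in each mutant over its control (bars: standard error; edgeR, 3 samples against 3) for footprints, RNA and footprints over RNA; filled points passed an adjusted p of 0.01. *ccsA* RNA fell in all 5 mutants set against pRB8c, *rpl32* footprints reached 2.10 in Δ*atpB*/*E*, and *ndhF* went from −1.01 to 0.67 over the 3 panels.

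*ccsA* had the most uniform change in RNA. Its RNA fell in all 5 mutants compared with pRB8c, with log2 fold changes of −1.09 to −1.97 and no overlap between the samples of mutant and control, as was the case for 75.3% to 84.4% of all genes in these comparisons. These 5 comparisons share the pRB8c samples and are not independent of one another. In Δ*petN* the 3 libraries held 471, 578 and 472 CPM of *ccsA* RNA, against 2087, 1862 and 1995 in pRB8c. The mutant samples lay far below every control sample (log2 fold change −1.97, SE 0.11, 3.91-fold lower, edgeR adjusted p = 1.49e-08), just short of 4-fold. At an adjusted p of 0.01, 42.9% of all genes were lower in Δ*petN* RNA.

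In Δ3’-*psbD* the *ccsA* RNA stood at 728, 919.9 and 705 CPM against 2012, 1668 and 2051 in pRB8c. That was a change of −1.28 (SE 0.19, edgeR adjusted p = 4.01e-08), in a comparison where 28.6% of all genes were lower. In Δ*psbJ* it stood at 959, 627 and 779.8 against 1952, 1792 and 1874 (−1.25, SE 0.15, edgeR adjusted p = 9.53e-14, beside 26.0% of all genes lower). *psbJ* encodes a photosystem II subunit and *ccsA* a cytochrome assembly factor, and *ndhF* and *rpl32* RNA each changed by −0.01 in that mutant. In Δ*petB*/*D* it stood at 895, 761 and 722 against 1802, 1609 and 1643 (−1.09, SE 0.14, edgeR adjusted p = 3.15e-08, beside 20.8% of all genes lower). The Δ*atpB*/*E* samples were spread, at 567, 999 and 1216 against 2258, 2063 and 2321 (−1.26, SE 0.25, edgeR adjusted p = 0.00115, beside 33.8% of all genes lower). All 3 still lay below the controls.

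Δ*psaB* went the same way without passing the test. *ccsA* RNA stood at 430.3, 1489 and 1090 CPM against 1997, 2252 and 2408 in RB70 (−1.15, SE 0.42, edgeR adjusted p = 0.0903). The first sample was the lowest, and without it the change was −0.78 (edgeR adjusted p = 4.04e-04). RNA samples of Δ*psaB* and RB70 with the same number deviated together, and with the sample number as a block the change was −1.31 (edgeR adjusted p = 0.00159). In as-*ATPC*, the antisense line with intact chloroplast genes, *ccsA* RNA stood close to SNN, at 2133, 2114 and 2042 against 2271, 2254 and 2486 (−0.16, SE 0.08, edgeR adjusted p = 0.0748; DESeq2 −0.23, adjusted p = 0.00359). The sample ranges did not overlap, as was the case for 83.1% of all genes, and the gap was small.

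The call of *ccsA* RNA also depended on the control line in Δ*atpB*/*E*, and on the scale in Δ*atpB*/*E* and Δ3’-*psbD*. The control lines RB70 and pRB8c also differ in the RNA-seq counting noted above. Set against RB70 in place of pRB8c, *ccsA* RNA fell in Δ*petN* (−1.54), Δ*petB*/*D* (−1.11), Δ*psbJ* (−1.03) and Δ3’-*psbD* (−0.95), with edgeR adjusted p between 8.89e-09 and 9.96e-05, while Δ*atpB*/*E* gave −0.46 (edgeR adjusted p = 0.103). With library sizes alone as the scale, Δ*atpB*/*E* gave −0.18 (edgeR adjusted p = 0.455) and Δ3’-*psbD* −0.57 (edgeR adjusted p = 0.0445), while the other 3 passed.

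*ccsA* footprints were lower in the same mutants with fewer counts behind them: 36, 38 and 38 in the Δ*atpB*/*E* libraries and 829, 371 and 891 in pRB8c. In Δ*petB*/*D* the level was 250.0, 191 and 198 CPM against 766, 414 and 502 (−1.40, SE 0.28, 2.63-fold lower, edgeR adjusted p = 0.00600, beside 18.2% of all genes were lower). In Δ*atpB*/*E* it was 205, 271 and 219.9 against 689, 399 and 487 (−1.19, SE 0.28, edgeR adjusted p = 0.00357, beside 23.4% lower). The mutant samples of both lines lay below every pRB8c sample, in comparisons where 58.4% and 76.6% of all genes did not overlap. Leaving out single libraries moved the adjusted p of both across 0.01: for Δ*petB*/*D* without its own first or second sample or without the first or the third pRB8c sample (p from 0.0111 to 0.0161), and for Δ*atpB*/*E* without its second sample (0.0144) or the first pRB8c sample (0.0131). With library sizes alone the changes were −0.44 and −0.41 (edgeR adjusted p = 0.237 and 0.272), and against RB70 −1.03 and −0.87 (0.0138 and 0.0332).

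In 3 further mutants *ccsA* footprints had about as large a fold change with an adjusted p above 0.01. Δ*psbJ* held 266, 103 and 182 CPM against 533, 307 and 407 (−1.17, SE 0.32, edgeR adjusted p = 0.0183). Without the third sample the change was −1.24 (edgeR adjusted p = 0.00208), and without the first −1.54 (0.00880). Δ*petN* held 138, 406 and 190.5 against 647, 414 and 479 (−1.07, SE 0.37, edgeR adjusted p = 0.0269), and its second sample reached almost to the controls. Without that sample the change was −1.56 (edgeR adjusted p = 6.13e-04). Δ3’-*psbD* held 380.0, 422 and 117 against 734, 459 and 579 (−0.94, SE 0.46, edgeR adjusted p = 0.137), in which the third sample was far below the other 2.

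In Δ*psaB*, with 161, 415 and 381 CPM against 504, 610.4 and 355 in RB70, the groups overlapped (−0.57, SE 0.40, edgeR adjusted p = 0.334), and the lowest value came from the library with 8 *ccsA* footprints. as-*ATPC* was the exception in direction: *ccsA* footprints rose there, at 842, 761 and 909 against 536, 567 and 434 in SNN (0.71, SE 0.12, 1.64-fold, edgeR adjusted p = 7.46e-05, beside 36.4% of all genes were higher). Footprints over RNA rose by 0.87 (SE 0.14, edgeR adjusted p = 1.64e-05, beside 23.4% of all genes higher). In the fit of all 10 lines together the rises in footprints and efficiency had adjusted p of 0.418 and 0.460, at 0.56 and 0.67.

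In the 5 mutants set against pRB8c the efficiency of *ccsA* did not pass the test. The changes were 0.35 (SE 0.48) in Δ3’-*psbD*, 0.09 (SE 0.37) in Δ*psbJ*, −0.31 (SE 0.30) in Δ*petB*/*D*, 0.90 (SE 0.39, edgeR adjusted p = 0.0540) in Δ*petN* and 0.07 (SE 0.38) in Δ*atpB*/*E*.

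*rpl32* moved the other way. On the TMM scale its footprints rose in 3 mutants, and 1 of these changes, in Δ*atpB*/*E*, was the only one of the 63 values to pass 4-fold. There the gene stood at 848, 1056 and 984 CPM against 223, 201 and 247 in pRB8c (log2 fold change 2.10, SE 0.21, 4.29-fold, edgeR adjusted p = 1.50e-05). Every mutant sample lay above every control, and 76.6% of all genes had no overlap there. Of all genes 18.2% were higher by 4-fold or more in that comparison, and the counts behind the mutant values were 149, 148 and 170. The rise is relative to the other chloroplast genes, and the median change over all genes was 0.36. Scaled by the reads mapped to all genomes (limma on log2(RPKM + 1)), *rpl32* footprints in Δ*atpB*/*E* changed by −0.91 (limma adjusted p = 0.00921), in libraries where the chloroplast took 3.00% to 4.79% of reads against 22.4% to 27.5% in pRB8c, and where the change of scale moved the median of all genes by −2.98.

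In Δ*petB*/*D* *rpl32* footprints stood at 642, 649 and 484 CPM against 248, 209 and 254 (1.32, SE 0.20, 2.49-fold, edgeR adjusted p = 0.00182, beside 13.0% of all genes higher). In Δ*petN* they stood at 415, 395 and 364 against 209, 209 and 243 (0.83, SE 0.19, 1.77-fold, edgeR adjusted p = 0.00392, beside 26.0% of all genes higher). Both groups were clear of the controls, in comparisons where 58.4% and 64.9% of all genes did not overlap. Neither call held when scaled by the reads mapped to all genomes (limma on log2(RPKM + 1)). There Δ*petB*/*D* gave 0.77 (limma adjusted p = 0.0560) and Δ*petN* 0.73 (0.0329). The Δ*petN* call was also lost without the first Δ*petN* sample (edgeR adjusted p = 0.0288) or without the first or second pRB8c sample (0.0160 and 0.0195), and against RB70 (0.55, edgeR adjusted p = 0.0547). With the genes hit by the mutation left out of TMM it was 0.76 (edgeR adjusted p = 0.0107). The Δ*petB*/*D* call was lost by a narrow margin without the second pRB8c sample (1.23, edgeR adjusted p = 0.0101).

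In Δ3’-*psbD*, at 452, 387 and 381 CPM against 237, 231 and 293, the mutant samples also lay above the controls, where 63.6% of all genes did not overlap, without passing the threshold (0.68, SE 0.20, edgeR adjusted p = 0.0323). In Δ*psaB* they lay at 724, 588 and 374 against 273, 354 and 303 (0.83, SE 0.35, edgeR adjusted p = 0.132), the third just above the highest RB70 sample, where 42.9% of all genes did not overlap. In Δ*psbJ*, at 204, 151 and 204 against 172, 155 and 206 (0.07, SE 0.24), and in as-*ATPC*, at 439, 505 and 433 against 442, 444 and 514 (−0.02, SE 0.11), the groups overlapped.

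*rpl32* RNA rose in 4 comparisons. In Δ3’-*psbD* it stood at 204, 163 and 248 CPM against 112, 71.2 and 91.3 in pRB8c (1.17, SE 0.22, 2.24-fold, edgeR adjusted p = 4.38e-06, beside 40.3% of all genes higher). The Δ*atpB*/*E* samples stood at 239, 196 and 245 against 125, 88.1 and 103 (1.10, SE 0.15, 2.14-fold, edgeR adjusted p = 9.66e-05, beside 41.6% higher). In Δ*petB*/*D* it stood at 163, 138 and 179 against 99.9, 68.7 and 73.2 (0.99, SE 0.17, 1.99-fold, edgeR adjusted p = 7.42e-06, beside 41.6% higher). No mutant sample reached down to the controls in any of these, where 75.3% to 84.4% of all genes did not overlap.

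In as-*ATPC* *rpl32* RNA stood at 327, 286 and 265 CPM against 149, 188 and 126 in SNN (0.92, SE 0.13, 1.89-fold, edgeR adjusted p = 9.87e-08, beside 39.0% of all genes higher). In Δ*psaB* the rise was of the same size, at 343, 542 and 389 against 190, 197 and 218 in RB70 (1.07, SE 0.24, edgeR adjusted p = 0.0178). It passed with the sample number as a block (1.05, edgeR adjusted p = 0.00709) and without the first Δ*psaB* sample (1.2, edgeR adjusted p = 9.86e-05). In Δ*psbJ* the groups overlapped (97.9, 81.9 and 85.9 against 108, 76.5 and 83.4; −0.01, SE 0.17).

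Δ*petN* was the line in which *rpl32* RNA fell, at 70.3, 68.3 and 59.7 CPM against 116, 79.5 and 88.8 (−0.52, SE 0.15, 1.43-fold lower, edgeR adjusted p = 0.00799, beside 42.9% of all genes lower). The samples did not overlap, as was the case for 76.6% of all genes. The call was lost without any 1 of the Δ*petN* samples or the first pRB8c sample (edgeR adjusted p from 0.0361 to 0.101), and the sign turned with library sizes alone (0.28, edgeR adjusted p = 0.143).

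The rise of *rpl32* RNA also depended on the control line. RB70, which carries no knockout either, held 142, 147 and 163 CPM of *rpl32* RNA against 113, 79.0 and 93.2 in pRB8c (0.66, SE 0.19, 1.58-fold, edgeR adjusted p = 0.0104). Set against RB70, *rpl32* RNA changed by 0.57 in Δ3’-*psbD* (edgeR adjusted p = 0.0568), 0.05 in Δ*petB*/*D* (0.840) and 1.01 in Δ*atpB*/*E* (3.35e-04). Δ*psbJ* then stood lower by 0.72 (0.00339), and Δ*petN* by 1.02 (1.74e-04). The control lines RB70 and pRB8c differ in the counting noted above for RNA-seq.

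Footprints over RNA of *rpl32* rose in Δ*petN*, by 1.35 (SE 0.24, 2.54-fold, edgeR adjusted p = 1.57e-04, beside 26.0% of all genes higher), where footprints rose and RNA fell. Scaled by the reads mapped to all genomes, that value was 0.38 (limma adjusted p = 0.323). They rose by 1.00 in Δ*atpB*/*E* (SE 0.27, edgeR adjusted p = 0.00433, beside 36.4% of all genes higher and a median of 0.46 over all genes). That call was lost when any 1 of the 6 samples was left out (edgeR adjusted p from 0.0106 to 0.103). In as-*ATPC* they fell, by 0.94 (SE 0.19, edgeR adjusted p = 1.64e-04, beside 15.6% of all genes lower), with RNA up and footprints overlapping. The other lines gave −0.49 (SE 0.29) in Δ3’-*psbD*, 0.08 (SE 0.26) in Δ*psbJ*, 0.32 (SE 0.26) in Δ*petB*/*D* and −0.24 (SE 0.37) in Δ*psaB*.

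*ndhF* passed the test least often, in 5 of 21 values. Its footprints were lower in Δ*petN*, at 1709, 1528 and 1575 CPM against 3328, 2724 and 2021 in pRB8c (−0.75, SE 0.20, 1.68-fold lower, edgeR adjusted p = 0.00765, beside 22.1% of all genes lower). The mutant samples lay close together and below the controls, which spread widely, and 64.9% of all genes did not overlap there. The call was lost without any 1 of the 3 Δ*petN* samples or the first or second pRB8c sample (edgeR adjusted p from 0.0133 to 0.0340). Against RB70 the change was −0.15 (edgeR adjusted p = 0.472), and with library sizes alone it was 0.00.

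*ndhF* footprints were higher in as-*ATPC*, at 2014, 1911 and 1935 against 1340, 1434 and 1301 in SNN (0.52, SE 0.08, 1.44-fold, edgeR adjusted p = 3.18e-05, beside 36.4% of all genes higher). The groups were clear of each other, as was the case for 75.3% of all genes. In the fit of all 10 lines together these changes of *ndhF* in as-*ATPC* had adjusted p of 0.160 in footprints and 0.0615 in RNA. In the other 5 comparisons *ndhF* footprints changed by −0.41 (Δ*psbJ*), −0.34 (Δ3’-*psbD*), −0.20 (Δ*petB*/*D*), −0.01 (Δ*psaB*) and 0.24 (Δ*atpB*/*E*), with SE between 0.19 and 0.27 and adjusted p between 0.120 and 0.970.

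*ndhF* RNA rose in 3 comparisons. In Δ3’-*psbD* it stood at 1153, 955 and 1477 CPM against 812, 653 and 784 in pRB8c (0.67, SE 0.21, 1.59-fold, edgeR adjusted p = 0.00347, beside 40.3% of all genes higher and a median of 0.35 over all genes). The third sample was the highest, and without it the change was 0.41 (edgeR adjusted p = 0.0597). The adjusted p was also above 0.01 without the first Δ3’-*psbD* sample or any 1 pRB8c sample (0.0138 to 0.0492), with DESeq2 size factors (0.38, 0.0605), with DESeq2 (0.38, 0.0447) and in the fit of all 10 lines (0.37, 0.105). In Δ*petB*/*D* it stood at 990.5, 1124 and 1012 against 727, 630.2 and 628 (0.65, SE 0.14, 1.57-fold, edgeR adjusted p = 1.76e-04, beside 41.6% higher). In as-*ATPC* it stood at 1173, 1199 and 1060 against 806, 768 and 835 (0.51, SE 0.11, 1.43-fold, edgeR adjusted p = 3.63e-05, beside 39.0% higher).

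In Δ*psaB*, at 1179, 1350 and 1227 CPM against 781, 884 and 885, *ndhF* RNA lay above RB70 in every sample (0.56, SE 0.17, edgeR adjusted p = 0.0546). Without the first Δ*psaB* sample the change was 0.60 (edgeR adjusted p = 0.00769). Of all genes 53.2% did not overlap in that comparison. *ndhF* RNA of Δ*atpB*/*E* ran from 772 to 1577 around a control range of 808 to 911 (0.43, SE 0.23, edgeR adjusted p = 0.112). It passed against RB70 (1.34, edgeR adjusted p = 5.24e-05), with library sizes alone (1.65, 0.00529) and in the fit of all 10 lines (0.67, 0.00369). Δ*psbJ* (−0.01) and Δ*petN* (−0.15) overlapped with pRB8c.

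Footprints over RNA of *ndhF* passed in 0 of 7 comparisons (edgeR; 3 had an unadjusted p under 0.05, and DESeq2 called 1). The change was below 0 in 6 of 7. It was −1.01 (SE 0.28, edgeR adjusted p = 0.0162) in Δ3’-*psbD*, where a block for the sample number, which paired the RNA samples, gave −0.98 (0.00574), −0.85 (SE 0.27, 0.0237) in Δ*petB*/*D*, −0.59 (SE 0.23, 0.0361) in Δ*petN*, −0.57 (SE 0.34) in Δ*psaB*, −0.40 (SE 0.24) in Δ*psbJ* and −0.19 (SE 0.36) in Δ*atpB*/*E*, of which 5 share pRB8c. In as-*ATPC*, where footprints and RNA rose by about the same factor, it was 0.01 (SE 0.13).

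Whether the 5 mutants that share pRB8c differed from one another was tested as a contrast among the mutants alone, with the pRB8c samples in the fit for scale and spread. *rpl32* differed among them in footprints (a span of 1.66 on the log2 scale between the highest and lowest mutant, edgeR adjusted p = 2.23e-05) and in RNA (span 1.36, edgeR adjusted p = 2.48e-07). *ccsA* did not pass in footprints (span 0.72, edgeR adjusted p = 0.647) or RNA (span 0.61, edgeR adjusted p = 0.117), nor did *ndhF* (0.54 and 0.0665 in footprints, 0.68 and 0.0122 in RNA). Of all genes 66.2% passed this test in footprints and 81.8% in RNA.

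Ratios of 2 genes within 1 library do not depend on the scale between libraries. *ccsA* over *rpl32* RNA per length was above 1 in all control samples: its log2 was 1.69, 2.06 and 2.0 in pRB8c, 0.90, 1.03 and 0.98 in RB70, and 1.44, 1.09 and 1.81 in SNN. It was lower in every mutant sample than in each sample of its control. In Δ*atpB*/*E* it was −1.24, −0.14 and −0.17, and in Δ3’-*psbD* −0.65, 0.01 and −0.98, and in Δ*petB*/*D* −0.03, −0.03 and −0.48. In Δ*psbJ* it was 0.80, 0.45 and 0.70, and in Δ*petN* 0.26, 0.59 and 0.50. In Δ*psaB* it was −2.16, −1.03 and −1.0, and in as-*ATPC* 0.22, 0.40 and 0.46. The mean shift ran from −1.09 in as-*ATPC* to −2.46 in Δ3’-*psbD*.

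In footprints the same ratio was lower in all 6 chloroplast mutants, with shifts of −1.31 in Δ*psbJ* to −3.26 in Δ*atpB*/*E*. It was higher by 0.74 in as-*ATPC*, again with no overlap in any comparison. The ratio rests on the same counts as the fold changes above, and how many other gene pairs lacked overlap was not computed. In Δ*atpB*/*E* the 3 values were −4.87, −4.78 and −4.98 against −1.19, −1.83 and −1.83 in pRB8c. With 3 samples against 3 the exact two-sided permutation test cannot go below p = 0.1, which each of these 14 comparisons reached. After adjustment over the 42 ratios tested the smallest p was 0.131, so that none passes. RB70 and pRB8c themselves differed in this ratio by −0.57 in footprints and −0.95 in RNA, also without overlap.

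**Figure D3:**
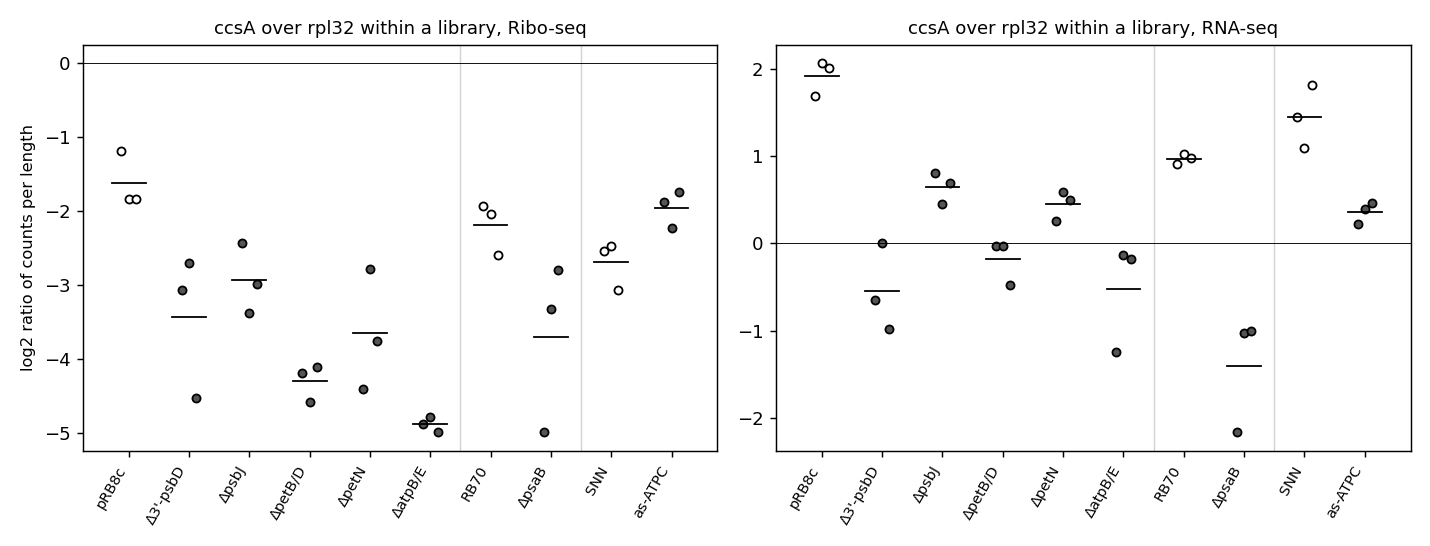
Log2 ratio of *ccsA* over *rpl32* counts per length in each library of the 10 lines (open points: control lines; filled: mutants; bars: means), Ribo-seq on the left and RNA-seq on the right; grey lines part the lines by their control. In RNA every mutant sits below its control, and in Ribo-seq only as-*ATPC* sits above.

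*ccsA* over *ndhF* RNA was lower in all 7 comparisons, with shifts of −0.67 (as-*ATPC*) to −1.94 (Δ3’-*psbD*), and *rpl32* over *ndhF* footprints was higher in the 6 chloroplast mutants, by 0.45 (Δ*psbJ*, overlapping) to 1.85 (Δ*atpB*/*E*), and lower by 0.55 in as-*ATPC*. Among the 42 ratios the samples of mutant and control did not overlap in 32, while 42.9% to 84.4% of single genes did not overlap in the same comparisons. Shares over other gene pairs were not computed.

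**Figure D4:**
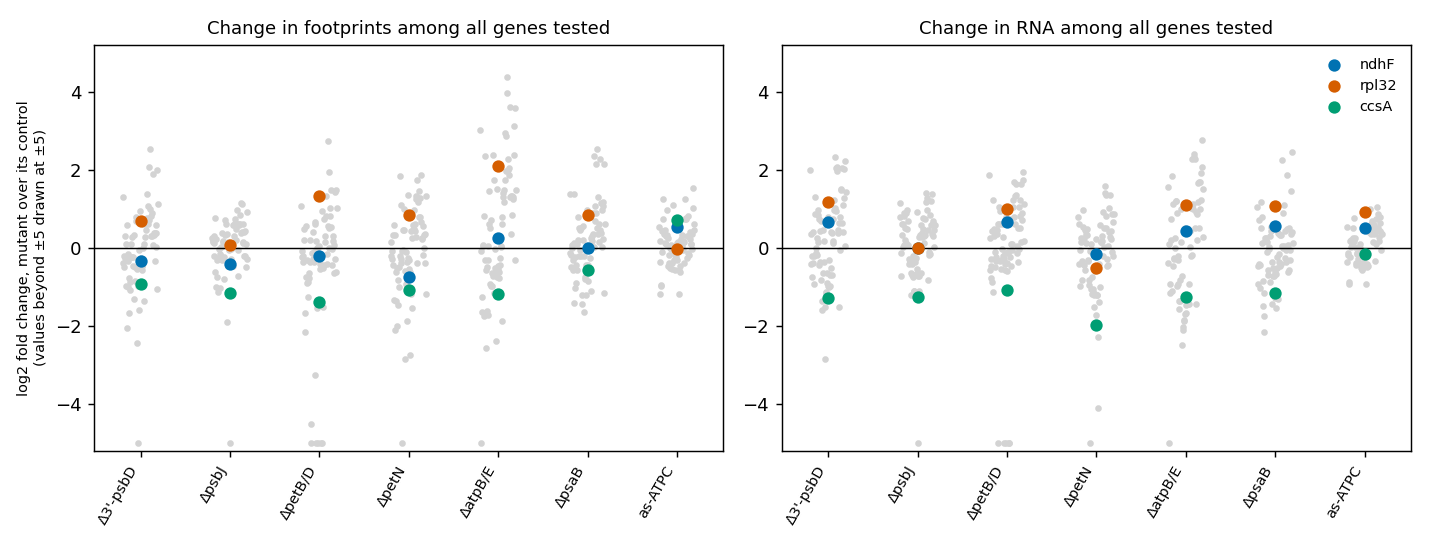
Log2 fold change of every gene tested (grey) and of *ndhF*, *rpl32* and *ccsA* (coloured) in each mutant over its control, for footprints and RNA; values beyond 5 are drawn at the edge. The *rpl32* footprint change of 2.10 in Δ*atpB*/*E* lies in a wide cloud, and *ccsA* RNA in Δ*petN*, at −1.97, lies near its lower edge.

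Genes of related function were counted beside each member. Footprints of the 10 other NDH genes, measured against the chloroplast genes as a whole, fell for some members in the mutants set against pRB8c: 3 of the 10 were lower in Δ3’-*psbD*, 2 in Δ*psbJ*, 3 in Δ*petB*/*D*, 6 in Δ*petN* and 4 in Δ*atpB*/*E*, where 10, 5, 14, 17 and 18 of all 77 genes were lower. The list had medians of −0.83, −0.30, −0.75, −0.92 and −0.54 beside medians of 0.02, 0.12, −0.15, −0.05 and 0.36 over all genes. *ndhA* and *ndhG* fell most in Δ3’-*psbD* (−2.06 and −1.66), Δ*petB*/*D* (−2.16 and −1.26) and Δ*petN* (−2.11 and −1.99). In those lines *ndhF* footprints changed by −0.34, −0.20 and −0.75. In as-*ATPC* 8 of the 10 were higher, beside 28 of all 77 genes, with a median of 0.39 against 0.10 over all genes. NDH footprints over RNA were lower for 8 of 10 in Δ*petN*, 7 in Δ*psbJ*, 6 in Δ*atpB*/*E*, 4 in Δ*petB*/*D* and 3 in Δ3’-*psbD*, beside 17, 13, 8, 15 and 8 of 77 over all genes, and the list medians ran from −0.75 to −1.28. In Δ*psaB* 1 was lower (median 0.56 against 0.33 over all genes), beside 1 of all 77 genes. In as-*ATPC* 3 were higher and 1 lower (median 0.13 against −0.00), beside 18 and 12 of all 77 genes.

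Footprints of the 8 other genes of the large ribosomal subunit, beside *rpl32*, were higher for 3 of 8 in Δ3’-*psbD*, 2 in Δ*psbJ*, 2 in Δ*petB*/*D*, 5 in Δ*petN* and 7 in Δ*atpB*/*E*, where 9, 6, 10, 20 and 34 of all 77 genes were higher, and lower for none of the 8 in these 5 (edgeR). The medians were 0.65, 0.59, 0.23, 0.60 and 1.36. Over these 5 mutants and 4 scalings the list median minus the median of all genes lay between −0.92 and −0.42 for the NDH list. For the ribosomal list it lay between 0.38 and 1.02. A change of scale shifts all genes of a comparison nearly alike. The small change of these differences between scalings is therefore no separate support. The signs of the list medians themselves turned (NDH up to 0.32 with library sizes alone, ribosomal genes down to −1.67 when scaled by the reads mapped to all genomes). *rpl33*, another protein of the large subunit, rose by 2.93 in Δ*atpB*/*E*, more than *rpl32*. In RNA 5 of 8 were higher in Δ3’-*psbD*, 5 in Δ*atpB*/*E*, 4 in Δ*petB*/*D*, 2 in Δ*psbJ*, 2 in Δ*petN* and 0 in Δ*psaB*. Of all 77 genes 31, 32, 32, 26, 20 and 2 were higher, in the same order. In Δ*petB*/*D* 1 of the 8 was lower, beside 16 of all 77. In RNA of as-*ATPC* all 8 of 8 were higher (median 0.44 against 0.10 over all genes), beside 30 of all 77 genes. In footprints there 1 was higher and 1 lower, beside 28 and 17 of all 77 genes, and *rpl32* changed by −0.02.

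The 9 other genes of the small single-copy region, 6 of them also in the NDH list, had footprint medians of −0.82 in Δ*petN*, −0.76 in Δ3’-*psbD*, −0.73 in Δ*atpB*/*E*, −0.64 in Δ*petB*/*D*, −0.56 in Δ*psaB*, −0.25 in Δ*psbJ* and 0.31 in as-*ATPC*. Relative to the median of all genes these stood below 0 in the 6 chloroplast mutants. As above, the choice among 4 scalings could hardly change that. In RNA the medians ran from −0.88 in Δ*psaB* to 0.25 in as-*ATPC*. In RNA of Δ*atpB*/*E* 2 were higher, with *ycf1* at 1.92, and 2 lower, with *ndhA* at −1.11, around a median of −0.25, beside 32 and 26 of all 77 genes. In Δ*petN* RNA 1 was higher and 5 were lower, beside 20 and 33 of all 77 genes (median −0.44), among them *psaC*, a photosystem I subunit, at −1.04. *petA*, which encodes cytochrome *f*, a *c*-type cytochrome that receives its haem with the help of *ccsA*, did not fall with *ccsA* RNA: its RNA changed by 0.74 in Δ3’-*psbD*, 0.60 in Δ*petB*/*D*, 0.33 in Δ*petN* and 0.88 in Δ*atpB*/*E*, all called, and by 0.08 in Δ*psbJ*, not called. In the comparisons where *petA* RNA was called, 31, 32, 20 and 32 of all 77 genes were higher, in the same order. With DESeq2 size factors it changed by 0.44 in Δ3’-*psbD* and 0.35 in Δ*petB*/*D*, neither called. In as-*ATPC*, where *ccsA* footprints rose, *petA* footprints fell by 0.47 and footprints over RNA by 0.49, both called, beside 17 and 12 of all 77 genes lower.

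Over the 10 lines, the genes with the most similar footprint pattern (Pearson r of mean log2 levels, a description over lines that share controls and libraries) were *ndhG* (0.94), *ndhH* (0.88) and *ndhE* (0.84) for *ccsA*, *rpoC1* (0.94), *rpl33* (0.88) and *rpoC2* (0.86) for *rpl32*, and *accD* (0.68), *clpP* (0.51) and *rps12* (0.49) for *ndhF*. In RNA they were *psbK* (0.92), *psbE* (0.76) and *psbM* (0.75) for *ccsA*, *rps15* (0.82), *rpl33* (0.77) and *ycf1* (0.76) for *rpl32*, and *ycf2* (0.88), *ycf1* (0.87) and *rps18* (0.87) for *ndhF*. Among the 3 neighbours themselves r was −0.02 between *ndhF* and *rpl32* footprints, −0.32 between *ndhF* and *ccsA* and −0.35 between *rpl32* and *ccsA*. In RNA the values were 0.64, −0.56 and −0.05.

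RB70 against pRB8c shows how far the 3 genes differ between control lines, in RNA together with the difference in counting noted above. The largest RNA changes over all genes there were 4.25 (*rpoC1*) and 3.53 (*atpF*), and their cause was not tested. None of the 3 passed in footprints, RNA or efficiency by edgeR, beside 9.09%, 61.0% and 44.2% of all genes; 1, 3 and 0 of them had an unadjusted p under 0.05, and DESeq2 called 0, 2 and 0. *ndhF* footprints stood at 1331, 1367 and 1629 CPM in RB70 against 2818, 2269 and 1928 in pRB8c (−0.70, SE 0.19, edgeR adjusted p = 0.0282). That is nearly the change seen in Δ*petN*. *ndhF* RNA changed by −0.30 (SE 0.11, edgeR adjusted p = 0.0293), *ccsA* RNA by −0.27 (SE 0.11, 0.0593) and *ccsA* footprints by −0.40 (SE 0.27, 0.282), all smaller than the falls of *ccsA* RNA in the 5 mutants.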

How the data were processed

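Ribo-seq and RNA-seq of 60 tobacco samples were analysed as deposited. After cutadapt, the authors used STAR 2.7.1a to map reads one genome after another (structural RNAs first, then chloroplast, mitochondria, nucleus) and featureCounts to count reading frames. The footprint values are whole counts as deposited, and the methods leave out 10 nt at the start and 30 at the end of a frame. The listed windows do so for 21 of 21 plus-strand genes. For 41 of 41 minus-strand genes, *ndhF* among them, they leave out 30 at the start codon and 10 at the stop codon. For RNA-seq the authors deposited estimated counts (94 values in 6 other genes were not whole), which were rounded. The strand setting of the counting was not given. The deposited RPKM values were used only to check lengths: they rest on the window length in Ribo-seq and on the full frame in RNA-seq. Per-sample columns that name other samples or none were left out (54).

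Genes with at least 10 counts in at least 3 libraries were tested (77) with edgeR 4.0.16 (glmQLFit, glmQLFTest) in R 4.3.3, with TMM within each comparison and kind, separately for footprints, RNA and their interaction (efficiency). SE is the log2 fold change over the square root of F. Between-mutant differences used an F test of contrasts among the mutants, with pRB8c in the fit. Alternatives were other scalings, DESeq2 1.42.0, limma 3.58.1 on log2(RPKM + 1 or 0.1), other filters, all lines in 1 fit, a replicate block, the other control line, a threshold of 0.05 and each sample left out. Scripts were tested on simulated counts. Same-numbered samples deviated together (every r over 0.1) in RNA of Δ3’-*psbD* (0.36 to 0.64) and Δ*psaB* (0.11 to 0.35) with their controls, and not in the other 12 sets. Replicate libraries all differed beyond counting noise. No counting interval is given, as the spread between samples is the larger error.

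Named genes are *ndhF*, *rpl32* and *ccsA*, list counts with at most the 2 called genes of largest change per list and comparison, *petA*, and the 3 most similar genes. The members and lists were chosen with earlier results of these data known.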

Additional observations from a re-analysis of the deposited data

How the results depend on the processing

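Of 63 gene results 25 passed the test, and they were recomputed under 1112 alternative values, of which 86 uncalled ones had the other sign. The scale mattered most. In Δ*psbJ* RNA, library sizes alone, RPKM + 1 and RPKM + 0.1 (limma) turned *ndhF* to 0.63, 0.61 and 0.61 and *rpl32* to 0.62, 0.62 and 0.63. In Δ*petN* RNA they gave 0.66, 0.70 and 0.71 for *ndhF* and 0.28, 0.36 and 0.36 for *rpl32*, and *ndhF* footprints there became 0.00234 with library sizes alone. In Δ*atpB*/*E* the RPKM scales, which follow the chloroplast share of reads, gave footprints of −2.72 and −2.76 (*ndhF*) and −0.91 and −0.91 (*rpl32*), and efficiencies of −2.33 and −2.34 (*rpl32*) and −2.91 and −3.13 (*ccsA*). In RB70 RNA against pRB8c, library sizes alone gave 0.52 (*ndhF*) and 0.56 (*ccsA*). *ccsA* RNA stayed below 0 in all 5 mutants set against pRB8c under each of these scales.

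Numbers of the 3 genes called moved as follows, and the causes were not tested. Moves between 2 and 3 were in RNA of Δ3’-*psbD* (3 to 2: library sizes alone, DESeq2 size factors, DESeq2, RPKM, all lines, other control), Δ*petB*/*D* (3 to 2: all lines, other control), Δ*atpB*/*E* (2 to 3: all lines) and as-*ATPC* (2 to 3: DESeq2 size factors, DESeq2), and in footprints of Δ*petN* (2 to 3: DESeq2 size factors, DESeq2, 0.05) and Δ*atpB*/*E* (2 to 3: RPKM + 1). Moves by more than 1.5 times were these. In footprints they went in Δ3’-*psbD* 0 to 1 (library sizes alone, DESeq2, all lines in 1 fit, threshold 0.05), Δ*psbJ* 0 to 1 (library sizes, DESeq2 size factors, DESeq2, replicate block, 0.05), Δ*petB*/*D* 2 to 1 (library sizes, RPKM, all lines, other control), Δ*petN* 2 to 1 (library sizes, RPKM, TMM without the genes hit) or 0 (replicate block, other control), as-*ATPC* 2 to 0 (all lines). In RNA they went in Δ*psbJ* 1 to 3 (library sizes, RPKM) or 2 (other control), Δ*petN* 2 to 1 (DESeq2 size factors, DESeq2, no filter, all lines, TMM without the genes hit), Δ*psaB* 0 to 2 (replicate block, DESeq2, all lines) or 1 (other control, 0.05), as-*ATPC* 2 to 1 (all lines), RB70 0 to 3 (library sizes), 2 (DESeq2) or 1 (DESeq2 size factors). In efficiency they went in Δ3’-*psbD* 0 to 1 (replicate block, 0.05) or 2 (RPKM), Δ*psbJ* 0 to 1 (library sizes), Δ*petB*/*D* 0 to 1 (RPKM, other control, 0.05), Δ*petN* 1 to 2 (DESeq2, 0.05), Δ*atpB*/*E* 1 to 0 (library sizes, DESeq2 size factors, all lines, TMM without the genes hit, other control) or 3 (RPKM), as-*ATPC* 2 to 1 (RPKM, all lines).

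With 1 sample left out, the number called ran from 0 to 1 (Δ*psbJ*), 1 to 2 (Δ*petB*/*D*), 0 to 2 (Δ*petN*) and 1 to 2 (Δ*atpB*/*E*) in footprints, from 1 to 2 (Δ*petN*), 0 to 3 (Δ*psaB*) and 0 to 2 (RB70) in RNA, and from 0 to 1 (Δ*petB*/*D*) and 1 to 2 (Δ*petN*) in efficiency, and was 0 each time in Δ*atpB*/*E*. Differences among the 5 mutants passed for *ndhF* footprints with library sizes alone (span 1.34), for *ndhF* RNA with library sizes alone (1.02) or a replicate block (0.69), with a span of 0.53 to 0.75 when 1 sample was left out, and for *ccsA* RNA with library sizes alone (0.98). Where the sample numbers did not pair the samples, the replicate block moved *ccsA* footprints in Δ*psbJ* to −1.24 (adjusted p = 6.51e-06) and, in Δ*petN*, *ndhF* to −0.72 (0.0209) and *rpl32* to 0.83 (0.0193) in footprints. With at least 100 counts asked for, 2 of 21 footprint values were lost, 1 of *ccsA* and 1 of *rpl32*.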
